A study of Bos taurus with 4 samples.

Results

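Glycolysis is the pathway that splits glucose into pyruvate, and many of its genes are also targets of hypoxia-inducible factor (HIF), so 35 genes of glycolysis and of the response to low oxygen were examined in bovine intestine, muscle and intestinal organoids. The genes were chosen by name, as 19 glycolytic enzymes, 2 pyruvate dehydrogenase kinases, 3 transporters of glucose and lactate, 2 regulators of the PFKFB family, 8 targets of HIF and the HIF subunit gene HIF1A. All 35 symbols were found, each on 1 row of the 29792 rows of the deposited counts, and all 35 had reads in at least 1 library. The study comprised 4 libraries, 1 each of small intestine tissue, muscle tissue, intestinal organoids at passage 5 (P5) and intestinal organoids at passage 10 (P10), all from Hanwoo cattle. The organoids had been grown from crypts of the jejunum of healthy animals over 24 months of age, in Matrigel (a basement membrane gel) with IntestiCult medium. The labels do not state which muscle was taken or whether the samples came from the same animal. Since every group was a single library, no difference could be checked against replicates and no p-values were computed.

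Cells take up glucose through transporters such as SLC2A1, trap it with a hexokinase, and convert it through a chain of enzymes to pyruvate, which LDHA and LDHB interconvert with lactate. Several steps are catalysed by isoforms encoded by separate genes, and skeletal muscle is known for isoforms of its own, such as PFKM, PGAM2 and ENO3. HIF1A encodes a transcription factor subunit that is destroyed in the presence of oxygen after hydroxylation by the EGLN enzymes. When it is stable it raises the transcription of most glycolytic enzymes and of genes such as VEGFA, CA9 and NDRG1. HIF1A itself is controlled mainly at the protein level, which RNA counts do not show.

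The QuantSeq method reads the 3′ end of polyadenylated RNA, so a transcript gives reads regardless of its length. The 4 libraries held between 12917720 and 17776273 reads. Levels are given as CPM, the counts scaled to a common library total, and differences as log2 differences of quantile-normalised counts with 1 added. The paper names a quantile method of edgeR, which was taken here as full quantile normalisation, although upper-quartile scaling is another reading and was run as an alternative. The 95% intervals beside differences cover counting error only, since reads were not tagged by molecule and PCR copies cannot be set aside. Reads with several alignments were counted by the authors, which makes the values uncertain for a gene that has near-identical copies, as GAPDH and other enzymes of this pathway are known to have.

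The label of each library was checked against markers of cell types. All 12 skeletal muscle markers were above 3 reads in muscle, with a summed level of 56698 CPM, against 4.78 CPM in intestine, 6.40 CPM in P5 organoids and 9.19 CPM in P10 organoids. The 8 epithelial markers summed to 1973 CPM in intestine, 9987 and 7803 CPM at P5 and P10 of the organoids, and 23.1 CPM in muscle. Intestine also held RNA of other cells, with 2380 CPM over 6 smooth muscle markers, 998 CPM over 6 markers of stroma, 43.8 CPM over 4 of endothelium and 5179 CPM over 6 of immune cells. In the organoids these lists summed to at most 15.5, 3.68, 2.31 and 10.2 CPM, and the smooth muscle marker DES and the stromal markers COL3A1, DCN and LUM had 0 reads at both passages. Markers of fat cells summed to between 0.282 CPM in P10 organoids and 50.2 CPM in muscle, and those of red cells to between 1.47 CPM in muscle and 26.4 CPM in P10 organoids. The 6 genes of dividing cells summed to 95.6 CPM in intestine and 18.7 CPM in muscle, against 525 CPM (P5) and 912 CPM (P10) in organoids. In such bulk samples, fewer cells of a type and less RNA per cell cannot be told apart.

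**Figure D1:**
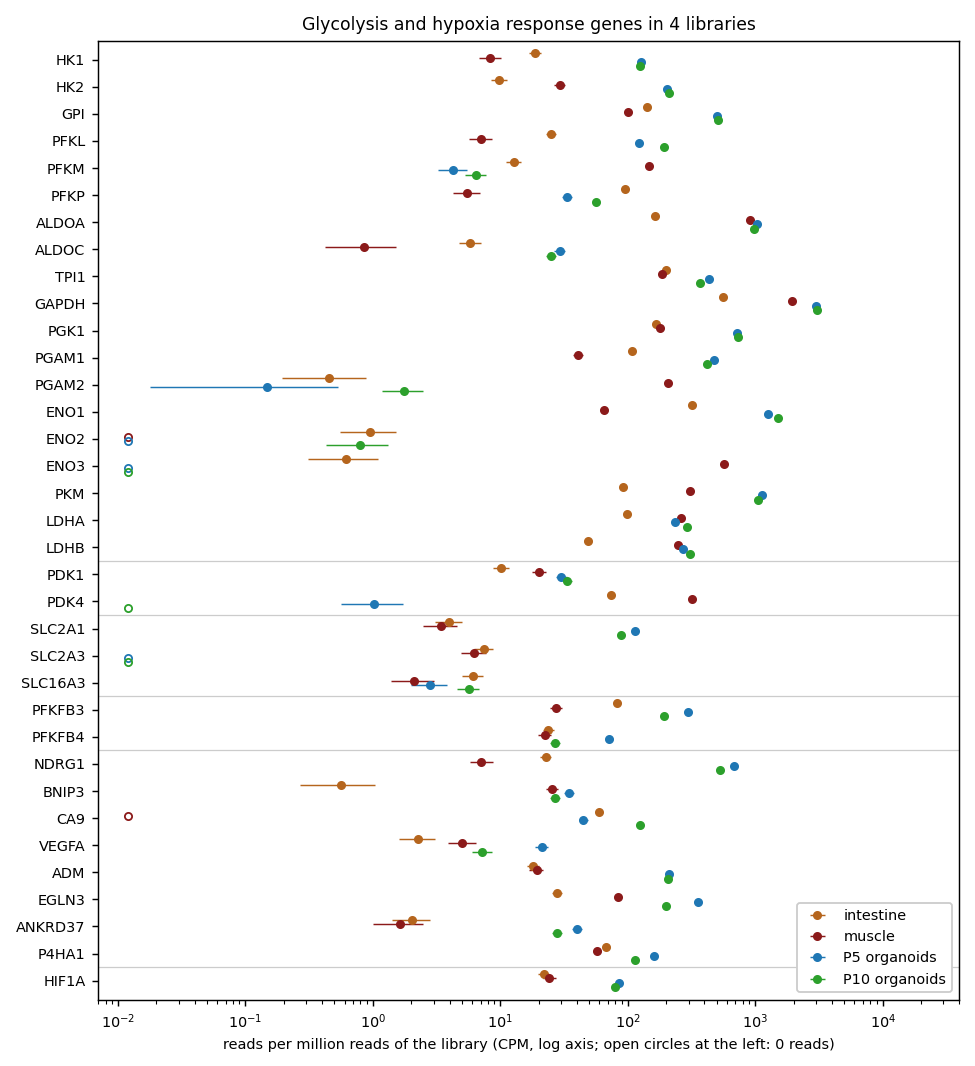
Level of each of the 35 genes in the 4 libraries, as CPM on a log axis, with exact 95% Poisson intervals of counting error as bars and genes with 0 reads as open circles at the left edge. By CPM, 17 of the 35 genes were highest at P5, 10 at P10, 4 in intestine and 4 in muscle, whereas after quantile normalisation the counts were 19, 5, 1 and 10, and PFKM, PGAM2, ENO3 and PDK4 were highest in muscle on both scales.

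To ask whether organoids kept the glycolytic and hypoxia programme of the tissue they came from, the organoid libraries were compared with intestine. At P5, 25 of the 35 genes exceeded their intestinal level by 2-fold or more, 6 were at least 2-fold lower and 4 were within 2-fold, while 26.4% of all 22200 rows with a read were at least 2-fold higher and 20.6% at least 2-fold lower. At P10 the counts were 23 higher, 4 lower and 8 within 2-fold, beside 28.7% and 23.8% of all rows. The count of lower genes includes ENO3, which rests on 11 reads in intestine and on none in organoids, with a bound that does not reach 2-fold at either passage. The median log2 difference from intestine over the 35 genes was 1.96 in P5 organoids, where the median of all rows was 0.10, and 1.85 in P10 organoids, where it was 0.00. The same 25 genes in P5 organoids and the same 23 in P10 organoids kept that difference under all 6 scalings of the libraries that were run. Both comparisons share the intestine library, so a value that is high or low there moves both. Among the 29 genes with at least 10 reads in every library, 23 were higher by 2-fold or more at P5 and 22 at P10, beside 14.9% and 19.5% of the 11455 rows that passed this filter.

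The 19 enzymes together took 0.206% of the reads in intestine, 0.521% in muscle, and 0.959% and 0.984% in organoids of P5 and P10. Their summed level was 4.65 times that of intestine in P5 organoids and 4.77 times in P10 organoids. The summed level of the 8 epithelial markers was 5.06 times and 3.96 times that of intestine, with a median ratio over the 8 markers of 4.28 and 3.26. The part of the cell makeup of intestine in the difference of the enzymes was not tested. The summed level of the 8 HIF targets was 7.73 times that of intestine in P5 organoids and 6.17 times in P10 organoids.

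**Figure D2:**
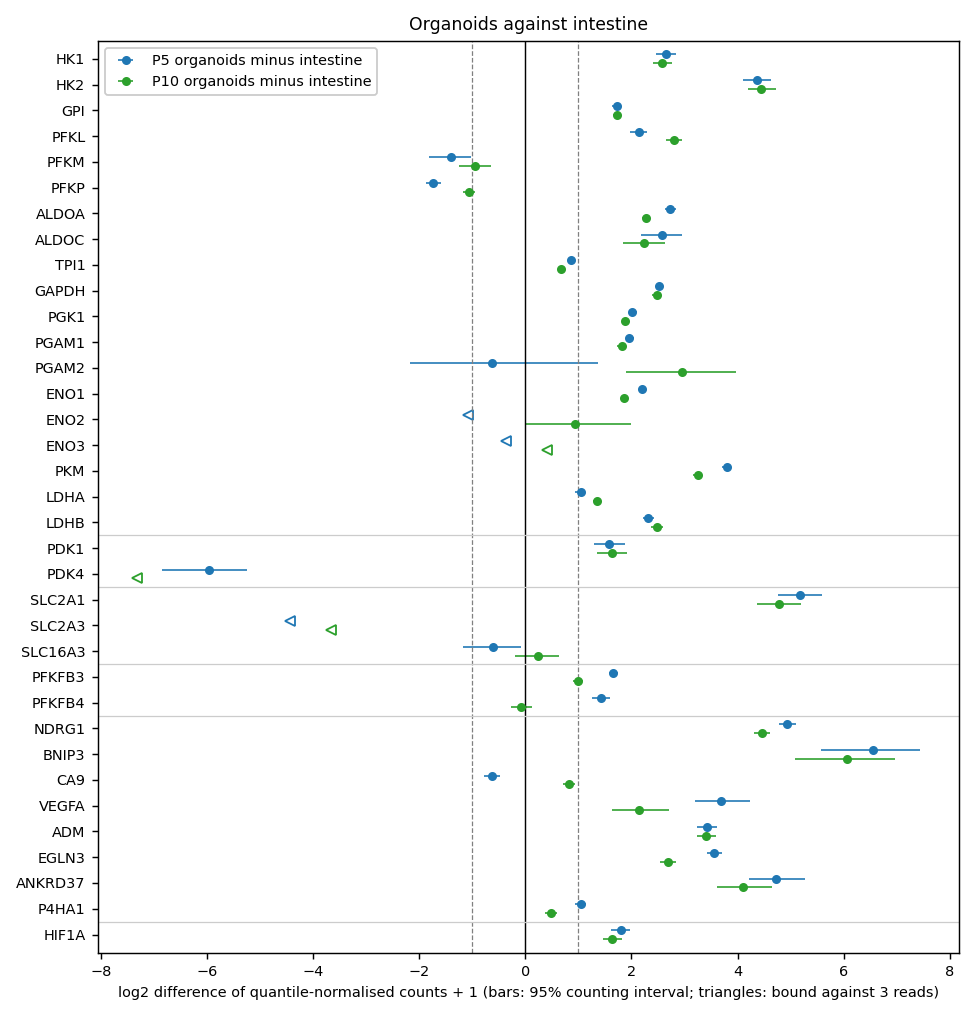
Log2 difference from intestine of each gene in P5 and P10 organoids, with 95% counting intervals as bars, 2-fold as dashed lines and triangles for bounds against 3 reads where a library had 0. Of the 35 genes, 25 lay to the right of the upper 2-fold line at P5 and 23 at P10, and PDK4 and SLC2A3 lay far to the left.

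Of the enzymes that act on 6-carbon sugars, the hexokinases HK1 and HK2, which phosphorylate glucose on entry, stood well above intestine in organoids. HK2, the hexokinase known for induction by insulin and HIF, was counted at 9.79 CPM in intestine and 29.2 CPM in muscle, against 202 CPM (P5) and 210 CPM (P10) in organoids. The log2 difference of HK2 from intestine was 4.36 (95% interval 4.11 to 4.64) in P5 organoids and 4.45 (4.20 to 4.73) in P10 organoids, the largest among the 19 enzymes at either passage. HK1, the housekeeping hexokinase, stood at 18.7 CPM in intestine and 8.36 CPM in muscle, against 128 CPM (P5) and 125 CPM (P10) in organoids, with log2 differences of 2.64 and 2.58 from intestine. Both organoid libraries lay far above both tissues for either gene. GPI, which turns glucose 6-phosphate into fructose 6-phosphate, stood at 141 CPM in intestine and 101 CPM in muscle, against 503 CPM (P5) and 514 CPM (P10) in organoids, with a log2 difference of 1.72 from intestine at both passages.

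The 3 genes of phosphofructokinase, the enzyme of the main committed step, differed in direction. PFKL, the liver type, was counted at 24.9 CPM in intestine and 7.04 CPM in muscle, against 122 CPM (P5) and 193 CPM (P10) in organoids. It was higher than in intestine by 2.13 (1.97 to 2.29) and 2.81 (2.65 to 2.96) on the log2 scale. PFKP, the platelet type, stood at 94.7 CPM in intestine and 5.50 CPM in muscle, against 33.4 CPM (P5) and 56.7 CPM (P10) in organoids, so intestine was the highest library. Against intestine PFKP differed by -1.74 (-1.88 to -1.59) in P5 organoids and -1.06 (-1.18 to -0.95) in P10 organoids, on the log2 scale, and the latter was within 2-fold per library total, at -0.74. PFKM, the muscle type, stood at 12.7 CPM in intestine and 148 CPM in muscle, against 4.26 CPM (P5) and 6.43 CPM (P10) in organoids. It was lower than in intestine by log2 differences of -1.41 and -0.95. Of the aldolases, which split the sugar, ALDOA stood at 164 CPM in intestine and 917 CPM in muscle, against 1039 CPM (P5) and 973 CPM (P10) in organoids, with log2 differences of 2.72 and 2.27 from intestine. ALDOC, known from brain, stood at 5.79, 0.852, 29.2 and 25.2 CPM in the same order of libraries, with log2 differences of 2.57 and 2.23 from intestine.

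The enzymes of the second phase of glycolysis, which yields ATP, were mostly higher in organoids as well. GAPDH, which carries out the oxidation step and is widely used as a reference gene, stood at 557 CPM in intestine and 1929 CPM in muscle, against 3017 CPM (P5) and 3053 CPM (P10) in organoids. On the log2 scale GAPDH was above intestine by 2.51 (2.48 to 2.56) in P5 organoids and 2.48 (2.39 to 2.52) in P10 organoids. GAPDH was thus not at a constant level over these samples. PGK1, which makes the first ATP of the pathway, stood at 166 CPM in intestine and 180 CPM in muscle, against 724 CPM (P5) and 734 CPM (P10) in organoids, with log2 differences of 2.02 and 1.89. TPI1, which interconverts the triose phosphates, had the smallest difference of the enzymes that were above intestine at both passages, with 199 CPM in intestine and 185 CPM in muscle, against 434 CPM (P5) and 372 CPM (P10) in organoids. Its log2 differences from intestine, 0.86 and 0.67, were within 2-fold, although per library total that of P5 organoids was 1.12.

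PGAM1, the common phosphoglycerate mutase, stood at 109 CPM in intestine and 40.8 CPM in muscle, against 478 CPM (P5) and 422 CPM (P10) in organoids, with log2 differences from intestine of 1.96 and 1.81. ENO1, the common enolase, stood at 319 CPM in intestine and 65.4 CPM in muscle, against 1251 CPM (P5) and 1516 CPM (P10) in organoids, with differences of 2.20 and 1.85. PKM, the pyruvate kinase gene of most tissues outside liver, stood at 91.6 CPM in intestine and 309 CPM in muscle, against 1126 CPM (P5) and 1043 CPM (P10) in organoids. PKM exceeded intestine on the log2 scale by 3.79 (3.72 to 3.88) in P5 organoids and 3.25 (3.17 to 3.33) in P10 organoids. The row does not separate the PKM1 and PKM2 splice forms. LDHA, the lactate dehydrogenase gene known as a HIF target, stood at 98.8 CPM in intestine and 260 CPM in muscle, against 234 CPM (P5) and 292 CPM (P10) in organoids. LDHB, its heart-type partner, stood at 48.9, 250, 272 and 306 CPM in the same order. Both were lowest in intestine, and LDHB differed more from it than LDHA did, by 2.31 against 1.04 in P5 organoids and by 2.48 against 1.36 in P10 organoids, with 95% intervals that do not overlap at either passage.

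PGAM2, ENO3 and ENO2 had few or no reads in intestine and organoids. PGAM2, the muscle mutase, had 8 reads in intestine and 2685 in muscle, against 2 (P5) and 31 (P10) in organoids. ENO3, the muscle enolase, had 11, 7330, 0 and 0 reads, and ENO2, the neuronal enolase, had 17, 0, 0 and 14. A count of 0 was set at a floor of 3 reads, which is between 0.169 and 0.232 CPM in these libraries. Against that floor ENO2 was at least 2.12-fold lower in P5 organoids than in intestine and ENO3 at least 1.29-fold lower, and no direction can be given for ENO3 in P10 organoids. For ENO2 in P10 organoids the log2 difference from intestine was 0.94 with quantile normalisation and -0.26 per library total, so no direction is given. PGAM2 was 2.96 (1.90 to 3.96) above intestine in P10 organoids and -0.63 (-2.17 to 1.37) from it in P5 organoids, the latter within counting error.

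Pyruvate dehydrogenase kinases shut the entry of pyruvate into the mitochondrial citric acid cycle, and the 2 genes of the list went opposite ways. PDK1, the HIF target, stood at 10.1 CPM in intestine and 20.1 CPM in muscle, against 30.1 CPM (P5) and 33.6 CPM (P10) in organoids, higher than intestine by 1.58 and 1.63 on the log2 scale. PDK4, known for induction by fasting and fatty acids, had 1303 reads in intestine and 4137 in muscle, against 14 (P5) and 0 (P10) in organoids, or 73.3, 320, 1.03 and 0 CPM. Both organoid libraries were far below both tissues. PDK4 differed from intestine by -5.97 (-6.86 to -5.25) on the log2 scale in P5 organoids, and P10 organoids were at least 160-fold lower than intestine. The markers of smooth muscle, stroma and immune cells were lower in organoids as well, by 153, 271 and 859 times in P5 organoids, and their part in the difference of PDK4 was not tested.

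Among the transporters, SLC2A1 (GLUT1), the basal glucose transporter and a HIF target, had 70 reads in intestine and 44 in muscle, against 1549 (P5) and 1583 (P10) in organoids, or 3.94, 3.41, 114 and 89.3 CPM. It was above intestine on the log2 scale by 5.17 (4.76 to 5.59) in P5 organoids and 4.78 (4.37 to 5.19) in P10 organoids. SLC2A3 (GLUT3), a transporter of neurons and blood cells, had 132 reads in intestine, 80 in muscle and 0 at both passages, at least 21.6-fold lower in P5 organoids and at least 12.7-fold lower in P10 organoids. The 2 glucose transporter genes thus stood in opposite positions in tissues and organoids. Summed immune markers were 859 times lower in P5 organoids than in intestine, and their part in the difference of SLC2A3 was not tested. SLC16A3 (MCT4), an exporter of lactate, was sparse, with 108 reads in intestine and 27 in muscle, against 38 (P5) and 100 (P10) in organoids. From intestine it differed by -0.61 (-1.17 to -0.086) in P5 organoids, which became -1.10 per library total, and 0.23 (-0.21 to 0.64) in P10 organoids, within counting error.

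The PFKFB enzymes make fructose 2,6-bisphosphate, a strong activator of phosphofructokinase. PFKFB3 stood at 82.8 CPM in intestine and 27.5 CPM in muscle, against 299 CPM (P5) and 192 CPM (P10) in organoids, with log2 differences from intestine of 1.65 (1.57 to 1.74) and 0.99 (0.90 to 1.08). PFKFB4 stood at 23.9, 22.3, 71.8 and 26.8 CPM in the same order, and only P5 organoids stood apart. It was 1.42 (1.25 to 1.60) above intestine in P5 organoids, whereas the difference of -0.081 (-0.28 to 0.12) in P10 organoids was within counting error.

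Among the 8 HIF targets, 7 exceeded intestine by 2-fold or more at P5 and 6 at P10, with median log2 differences of 3.63 and 3.05. NDRG1, a stress response gene, stood at 22.7 CPM in intestine and 7.12 CPM in muscle, against 687 CPM (P5) and 532 CPM (P10) in organoids. NDRG1 was above intestine on the log2 scale by 4.94 (4.79 to 5.10) in P5 organoids and 4.46 (4.31 to 4.62) in P10 organoids. BNIP3, which acts in the removal of mitochondria, had 10 reads in intestine and 329 in muscle, against 475 (P5) and 476 (P10) in organoids. Its log2 differences of 6.55 (5.57 to 7.45) and 6.07 (5.09 to 6.97) were the largest of the genes above intestine at either passage, and rest on the 10 reads in intestine, the lowest library. ANKRD37, known mainly as a HIF target, had 36, 21, 545 and 494 reads in the same order, and was 4.73 and 4.11 above intestine.

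ADM, which encodes the vessel-widening peptide adrenomedullin, stood at 18.1 CPM in intestine and 19.3 CPM in muscle, against 210 CPM (P5) and 206 CPM (P10) in organoids. The tissues lay close together in CPM and both organoid libraries far above them, with log2 differences from intestine of 3.42 (3.24 to 3.61) and 3.41 (3.23 to 3.60). EGLN3, the oxygen sensor that HIF itself induces, stood at 27.8 CPM in intestine and 83.4 CPM in muscle, against 354 CPM (P5) and 200 CPM (P10) in organoids, with differences of 3.56 and 2.69. VEGFA, the growth factor of blood vessels, had 40 reads in intestine and 65 in muscle, against 289 (P5) and 128 (P10) in organoids, and was 3.69 (3.20 to 4.24) and 2.14 (1.63 to 2.71) above intestine. P4HA1, a prolyl hydroxylase needed for collagen, stood at 68.0 CPM in intestine and 57.8 CPM in muscle, against 162 CPM (P5) and 114 CPM (P10) in organoids, with differences of 1.05 and 0.48.

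CA9, a carbonic anhydrase of the cell surface, was the only gene of the 8 HIF targets that lay below intestine in P5 organoids. It had 1057 reads in intestine and 0 in muscle, against 610 (P5) and 2221 (P10) in organoids, or 59.5, 0, 44.9 and 125 CPM. P5 organoids were below intestine by a log2 difference of -0.64 (-0.78 to -0.48) and P10 organoids above it by 0.82 (0.72 to 0.94). HIF1A stood at 22.0 CPM in intestine and 24.3 CPM in muscle, against 85.1 CPM (P5) and 79.4 CPM (P10) in organoids, higher than intestine by 1.79 (1.62 to 1.97) and 1.64 (1.46 to 1.81) on the log2 scale.

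To compare isoforms without any scaling between libraries, the reads of each isoform were taken as a share of the reads of its family within a library. Shares depend on the annotated 3′ ends, so only their change from library to library is described, with exact (Clopper-Pearson) 95% intervals, and for a count of 0 the share that 3 reads would make is given in place of an interval. PFKM took 92.2% (91.0 to 93.3) of phosphofructokinase reads in muscle, 9.60% (8.44 to 10.9) in intestine, and 2.67% (P5) and 2.51% (P10) in organoids. PFKP took 71.6% (69.7 to 73.4) in intestine, and PFKL took 76.4% (74.6 to 78.2) in P5 organoids and 75.3% (74.0 to 76.6) in P10 organoids. Muscle was set apart by ENO3, with 89.7% (89.0 to 90.3) of enolase reads, and by PGAM2, with 83.6% (82.3 to 84.9) of phosphoglycerate mutase reads. In the other libraries PGAM2 took at most 0.412% and ENO3 at most 0.193%, and ENO3 had 0 of 17007 enolase reads in P5 organoids, where 3 reads are a share of 0.0176%.

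In hexokinase reads, HK2 took 34.3% (30.2 to 38.6) in intestine, 61.2% (59.8 to 62.6) in P5 organoids, 62.7% (61.4 to 63.9) in P10 organoids and 77.7% (73.8 to 81.4) in muscle. The LDHA share of lactate dehydrogenase reads was 66.9% (65.0 to 68.7) in intestine, 50.9% (49.7 to 52.2) in muscle, and in organoids 46.3% (45.1 to 47.5) at P5 and 48.8% (47.9 to 49.8) at P10. Intestine had the highest LDHA share of the 4 libraries, and its interval does not overlap theirs. PDK4 took 87.9% of the kinase reads in intestine and 94.1% in muscle, against 3.31% (1.82 to 5.49) in P5 organoids and 0 of 595 in P10 organoids, where 3 reads are a share of 0.504%. SLC2A1 took 34.7% of the glucose transporter reads in intestine and 35.5% in muscle, and all 1549 and 1583 reads in P5 and P10 organoids. ALDOC took between 2.52% and 3.42% of aldolase reads in intestine and organoids and 0.0928% in muscle, and PFKFB4 took 44.8% of PFKFB reads in muscle and 12.3% in P10 organoids, with 22.4% and 19.4% in intestine and P5 organoids.

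**Figure D3:**
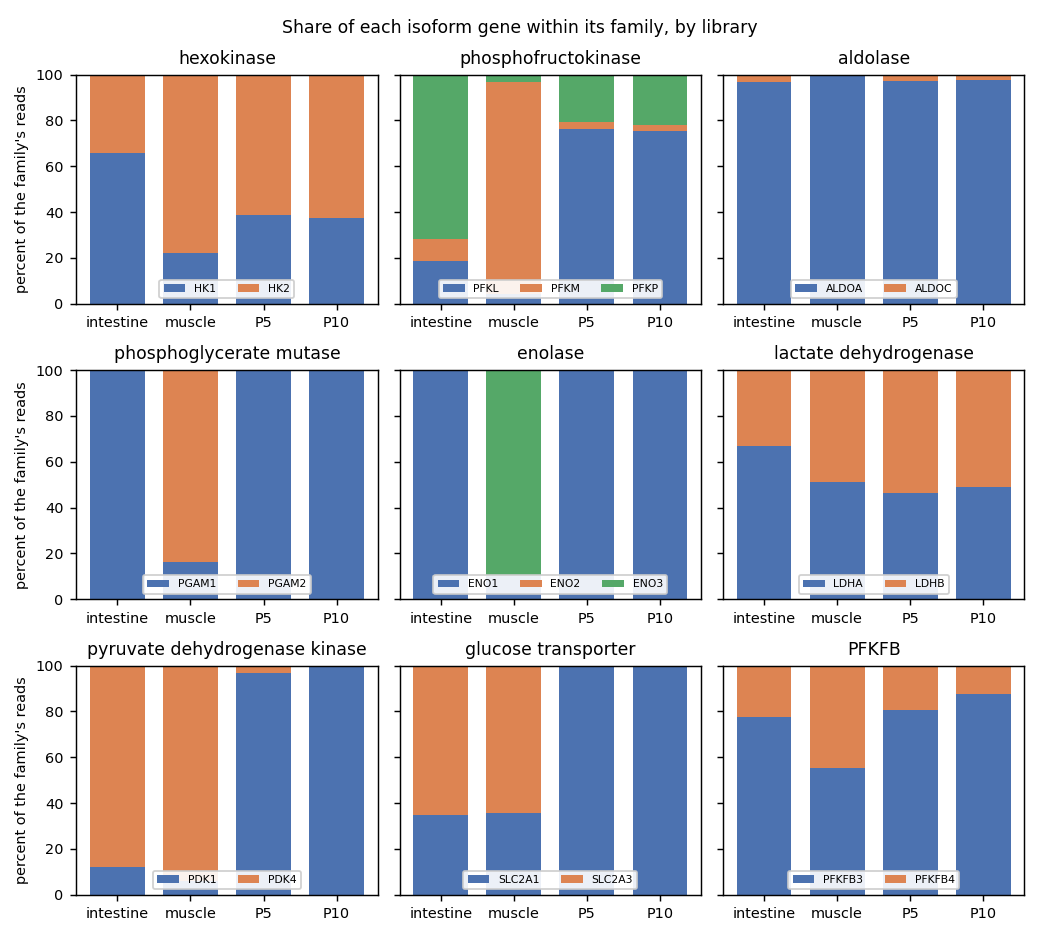
Stacked bars of the percent of a family's reads that each isoform gene took in the 4 libraries, for 9 families. ENO3, PGAM2 and PFKM took most of their family's reads in muscle only, PFKP did so in intestine only, and PDK4 and SLC2A3 took most in both tissues but not in organoids.

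To see whether the genes changed over further passages, P10 organoids were compared with P5 organoids. Of the 35 genes, 29 were within 2-fold, 3 were at least 2-fold higher and 3 at least 2-fold lower, beside 17.0% of all rows higher and 17.7% lower. The median log2 difference was -0.13, and 0.00 over all rows. The 3 higher genes were CA9, PGAM2 and ENO2, of which CA9 alone had over 100 reads in either library, with a log2 difference of 1.46 (1.32 to 1.58). PGAM2 rested on 31 reads against 2, a log2 difference of 3.58 (1.76 to 4.86), and ENO2 on 14 against 0, at least 4.06-fold higher. The 3 lower genes were VEGFA, with a log2 difference of -1.55 (-1.80 to -1.28), PFKFB4, with -1.50 (-1.67 to -1.34), and PDK4, with 14 reads at P5 and 0 at P10, at least 2.55-fold lower. ENO3 and SLC2A3 had 0 reads at both passages, so no difference is given. Under each of 6 scalings the same 3 genes were higher and the same 3 lower.

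Of the other HIF targets, EGLN3, ANKRD37, P4HA1, NDRG1 and BNIP3 were also lower at P10, by log2 differences of -0.87, -0.62, -0.57, -0.48 and -0.48, and their signs held under all 6 scalings. ADM did not differ beyond counting error (-0.0076, -0.087 to 0.072). The regulator PFKFB3 was lower by a log2 difference of -0.66 (-0.73 to -0.59), and SLC2A1 by -0.40 (-0.51 to -0.30). Phosphofructokinase genes were all higher at P10, PFKL by 0.67 (0.59 to 0.77), PFKP by 0.67 (0.52 to 0.83) and PFKM by 0.46 (0.077 to 0.86). LDHA was 0.32 higher and LDHB 0.17 higher. SLC16A3 was 0.84 (0.38 to 1.32) higher, on 100 reads against 38. The differences of HK2, GPI, GAPDH, PGK1 and ENO1 turned direction with the scaling, and that of ENO1 was -0.35 with quantile normalisation and 0.28 per library total. Markers of dividing cells summed to 525 CPM at P5 and 912 CPM at P10, and epithelial markers to 9987 and 7803 CPM, and their part in these differences was not tested. With 1 library a passage, passage and variation between cultures cannot be told apart.

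**Figure D4:**
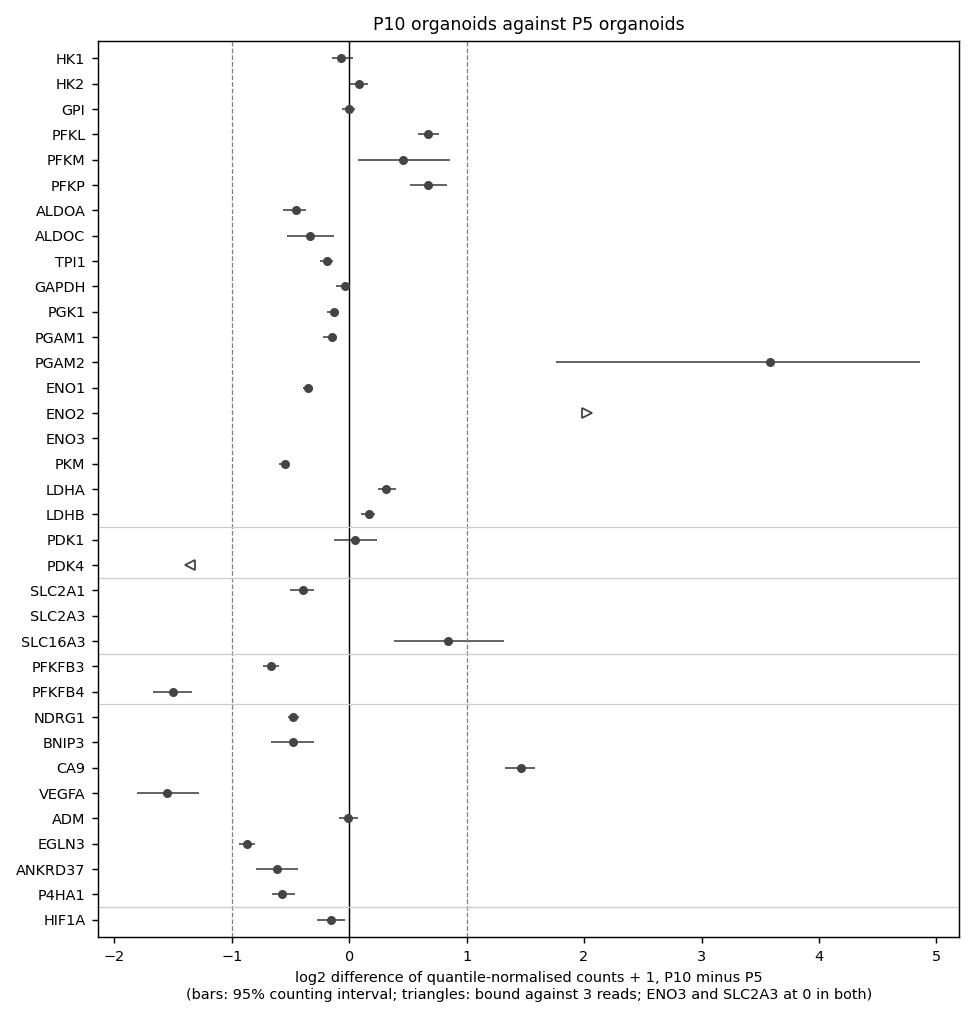
Log2 difference of each gene between P10 and P5 organoids, with 95% counting intervals as bars and 2-fold as dashed lines, and ENO3 and SLC2A3 not drawn since both libraries had 0 reads. CA9, PGAM2 and ENO2 lay to the right of the upper 2-fold line and VEGFA, PFKFB4 and PDK4 to the left of the lower one, with triangles for bounds against 3 reads.

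Muscle served as the control tissue of the study, and it was compared with intestine for the same genes. With quantile normalisation, 19 of the 35 genes were higher in muscle by 2-fold or more and 5 lower by as much, beside 28.1% and 28.9% of all rows, and the median log2 difference was 1.22. This count depended on the scaling. Per library total 13 were at least 2-fold higher and 11 at least 2-fold lower, the median of the 35 genes was -0.097 and that of all rows -0.98, so the genes lay 0.89 above the rows as a whole. A single 18S ribosomal RNA row, RN18S1, took 23.6% of the reads in muscle and 4.08% in intestine, and without it the median was 0.23, beside -0.79 for all rows. Higher by at least 2-fold under all 6 scalings were 13 genes, namely HK2, PFKM, ALDOA, GAPDH, PGAM2, ENO3, PKM, LDHA, LDHB, PDK4, BNIP3, VEGFA and EGLN3. Lower by at least 2-fold under all 6 were PFKP, ALDOC, ENO1, ENO2 and CA9, of which ENO2, with 17 reads in intestine and 0 in muscle, was at least 1.06-fold lower against the floor.

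Of the 3 muscle isoforms, ENO3 was 10.99 (10.04 to 11.81) higher in muscle on the log2 scale and PGAM2 9.98 (9.04 to 10.92), both on few reads in intestine, and PFKM 4.18 (3.96 to 4.42). Their counterparts were lower in muscle, ENO1 by -1.61 (-1.71 to -1.51) and PFKP by -2.91 (-3.27 to -2.60), and PGAM1 by -0.58, which was -1.41 per library total. Genes without such a partner differed less, with ALDOA at 2.74, PKM at 2.07 and GAPDH at 1.75 above intestine, and TPI1 at 0.27, which turned to -0.10 per library total. Of the HIF targets, BNIP3 was 7.27 (6.29 to 8.16) above intestine, VEGFA 3.01 (2.42 to 3.62) and EGLN3 2.28 (2.13 to 2.44), and the smallest values for them under the 6 scalings were 5.35, 1.14 and 1.58. CA9 was at least 109-fold lower in muscle than in intestine. HK1, GPI, TPI1, SLC2A1, SLC2A3, SLC16A3, PFKFB4, ANKRD37 and P4HA1 turned direction between scalings, so no direction is given for these. The range for HIF1A was 0.14 to 1.32, and for ADM 0.094 to 1.27.

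**Figure D5:**
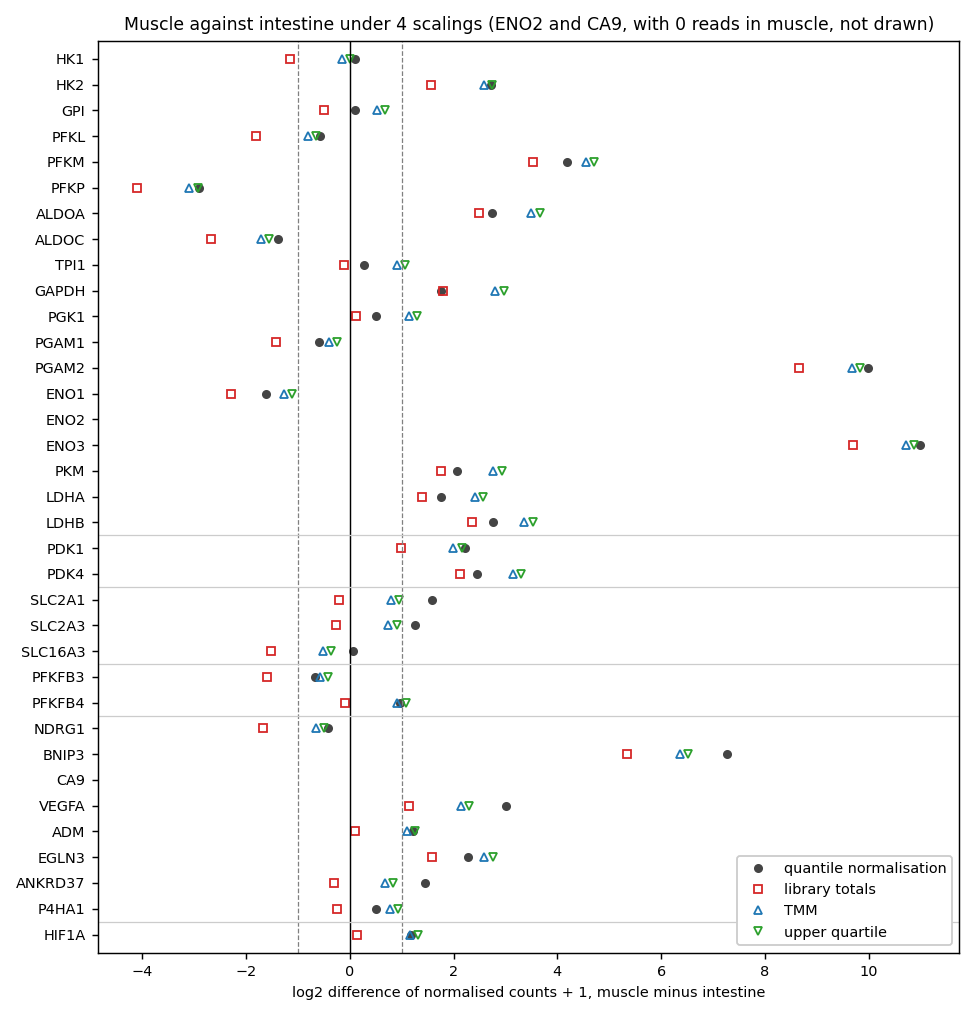
Log2 difference of each gene between muscle and intestine under quantile normalisation, library totals, TMM and upper-quartile scaling, with 2-fold as dashed lines. ENO2 and CA9, with 0 reads in muscle, are not drawn. ENO3, PGAM2, BNIP3 and PFKM stayed to the right of the upper line while PFKP, ALDOC and ENO1 stayed to the left of the lower one.

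A list of 63 other genes of these pathways was counted in the same way, of which 61 had reads. Against intestine, 18 of the 61 were higher by 2-fold or more at P5 and 10 lower, and 17 and 15 at P10. These shares of the list lie near those of all rows, 26.4% higher and 20.6% lower at P5, and 28.7% and 23.8% at P10. Between the passages 2 were higher and 16 lower at P10, beside 17.0% and 17.7% of all rows. In muscle 25 were higher than in intestine and 20 lower, beside 28.1% and 28.9% of all rows, and these counts became 11 and 30 per library total. Among 18 further HIF targets, 10 were at least 2-fold higher at each passage, 3 were lower in P5 organoids and 4 in P10 organoids. CA12, another carbonic anhydrase of the cell surface, stood at 3.32 CPM in intestine and 0.0774 CPM in muscle, against 124 CPM (P5) and 69.2 CPM (P10) in organoids, with log2 differences from intestine of 5.61 and 4.70. AK4, a mitochondrial adenylate kinase, stood at 2.70, 5.11, 59.7 and 48.1 CPM, and ERO1A, an oxidase that serves disulphide formation, at 20.8, 2.94, 335 and 185 CPM in the same order. Of 8 genes of oxygen sensing, 1 was at least 2-fold higher and 2 lower in P5 organoids, and 2 and 3 in P10 organoids. Of 10 genes of pyruvate entry and lactate uptake, 8 were within 2-fold of intestine at each passage.

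The other glycolytic and gluconeogenic enzymes showed no common direction, with 3 of 16 at least 2-fold higher and 4 lower in P5 organoids, and 3 and 6 in P10 organoids. PCK1, which starts gluconeogenesis from oxaloacetate, had 1142 reads in intestine, 85 in P5 organoids and 0 in both P10 organoids and muscle. G6PC, which releases free glucose, had 478 reads in intestine, 3 in P5 organoids and 0 in the other 2 libraries. Between the passages, 8 of the 16 were at least 2-fold lower at P10, and 1 was higher. PKLR, the pyruvate kinase of liver and absorptive tissue, had 435 reads at P5 and 51 at P10, a log2 difference of -3.16, and PCK1 was at least 12.8-fold lower. INSIG2, a regulator of sterol synthesis, had 395 and 79 reads, a log2 difference of -2.53, and PFKFB2 had 520 and 1572, a difference of 1.16. In muscle, PYGM, the muscle glycogen phosphorylase, had 5552 reads against 44 in intestine and 0 at both passages of organoids, a log2 difference of 8.41 (7.96 to 8.89) from intestine. FBP2, the muscle fructose bisphosphatase, was 4.70 above intestine, and PFKFB1 4.01, while PCK2, the mitochondrial form of PCK1, had 7 reads against 3282, a log2 difference of -7.49.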

How the data were processed

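RNA of 4 samples was measured by QuantSeq 3′ mRNA-Seq, 1 library each. Alignment by the authors was with Bowtie2, and Bedtools coverage, over single and multiple alignments, gave the whole-number counts per gene symbol that they deposited, without normalisation. Their processing notes also name edgeR. Genome build and annotation are not given in the sources used here, so no coordinates or sequences are printed. Quantile normalisation was run on the 22200 rows with a read, over all 4 libraries, before log2 with 1 added. No model was fitted, since each group has 1 library. Exact Poisson bounds of each count were passed through the normalisation and combined by the MOVER rule into 95% intervals. A count of 0 was set at 3 reads for a bound, and genes with at most 3 reads in both libraries were given no fold. Marker lists are sums of CPM.

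The members and lists were chosen with earlier results of these data known. All 35 members are named, and of the other pathway genes at most 3 a direction and comparison, the largest differences with a mean of at least 50 reads and at least 2-fold under quantile, library total, TMM and upper-quartile scaling. The 6 scalings are these 4, DESeq2 median-of-ratios and library totals without RN18S1. Further alternatives were pseudocounts of 0.1 and 5, filters at 10 reads, rows summed by symbol and, added after seeing the data, normalisation without muscle. The code was tested on simulated data. Scalings came from edgeR 4.0.16, DESeq2 1.42.0 and limma 3.58.1 under R 4.3.3, and the rest from scipy 1.17.1, pandas 2.3.3 and numpy 2.4.6 under Python 3.11.15, with plots by matplotlib 3.10.9.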

Additional observations from a re-analysis of the deposited data

Results flagged for a closer look

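CA9 lay on opposite sides of intestine at the 2 passages, below it in P5 organoids by a log2 difference of -0.64 and above it in P10 organoids by 0.82, so the passages were 1.46 apart. Both intervals of counting error leave out 0, and the signs were the same under all 6 scalings. The difference between the passages was not tested, since each has 1 library.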

How the results depend on the processing

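The medians of the organoid comparisons kept their sign under every alternative run. Against intestine the median of P5 organoids, 1.96 as reported, was 1.80 with TMM or DESeq2 size factors, 1.82 with upper-quartile scaling and 2.08 over genes with at least 10 reads in every library. That of P10 organoids, 1.85 as reported, was 1.62 with TMM or DESeq2 size factors, 1.61 with upper-quartile scaling and 1.79 under that filter. Under the filter at 10 reads in every library, which leaves 29 of the 35 genes, the genes at least 2-fold lower than intestine numbered 3 at P5, 2 at P10 and 3 in muscle, and 0 were at least 2-fold higher in P10 than in P5 organoids, since CA9, PGAM2 and ENO2 are left out. The median of P10 against P5 organoids was -0.030 per library total and -0.097 without RN18S1. The muscle comparison depended most on the scaling. Its median was 0.91 with TMM, -0.097 per library total and 0.23 without RN18S1, and the genes at least 2-fold lower numbered 11 per library total and 10 without RN18S1. SLC2A1, SLC2A3 and ANKRD37, above intestine in muscle as reported, were -0.21, -0.26 and -0.31 per library total. Of 1481 differences of single genes under the alternatives, 1139 stayed within the counting interval of the reported value, 339 left it and 3 called ones reversed. Leaving muscle out of the quantile normalisation, an alternative chosen after seeing the data, left the counts of the organoid comparisons as reported. With 1 library a group no replicate can be left out. No paired analysis was possible because each group has 1 library and no test was run.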
